A study of Mus musculus with 26 samples.

Results

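The genes of the cone light response form a set of 10 among the 37991 genes of the count table: the opsins Opn1mw and Opn1sw, the arrestin Arr3, the transducin subunits Gnat2, Gnb3 and Gngt2, the phosphodiesterase subunits Pde6c and Pde6h, and the channel subunits Cnga3 and Cngb3. They were taken by name for their role in the cone light response, each was found by its symbol in the annotation, and each symbol matched 1 gene identifier. All 10 passed the filter on low counts in all 5 experiments.

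Cones are the photoreceptors of daylight and colour vision. In a cone, light turns an opsin into an activator of transducin, transducin switches on the phosphodiesterase, cyclic GMP falls and the cyclic nucleotide-gated channel closes, after which cone arrestin quenches the opsin. Each of these steps has a rod counterpart encoded by a different gene. In retinitis pigmentosa the mutation usually lies in a rod gene, rods die first, and cones lose their outer segments and die later.

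The mice carried the rd10 mutation of the rod gene Pde6b (B6.CXB1-Pde6brd10/Jrd10), and every group shared it. RNA was sequenced from 22 whole retinas in 4 experiments, which compared DZNep (2 treated and 4 control retinas), UNC1999 (3 and 3), UNC0642 (2 and 2) and Romidepsin (3 and 3) with their own controls. The remaining experiment used rods sorted by flow cytometry, 2 samples after GSK2879552 and 2 controls, from rd10 mice crossed with B6.Cg-Tg(Nrl-EGFP)1Asw/J, in which the rod promoter Nrl drives EGFP. Injections into the peritoneum ran from PN9 to PN24. The doses in mg/kg were 1 to 1.5 for DZNep, 15 for UNC1999, 7.5 for UNC0642, 0.2 for Romidepsin and 4.2 for GSK2879552. UNC1999 was diluted in a mixture of DMSO, PEG, Tween and saline, and the other inhibitors in saline. Controls received saline, while those of UNC1999 are described in 1 place as given the diluent alone. If they received saline, solvent and inhibitor cannot be told apart in that experiment or in its contrasts with other inhibitors. The study names DZNep and UNC1999 as inhibitors of EZH2, UNC0642 of G9A/GLP, Romidepsin of HDAC1 and GSK2879552 of LSD1. The counted reads of a retina numbered 13732959 to 36354094 and those of a sorted rod sample 7289460 to 19864491. The labels of the UNC1999 retinas number genotype and treatment upwards from library to library, and their titles were used. UNC1999 libraries carry another library series name than the other retinas, so levels are compared between experiments as a description.

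Levels are given as CPM, the counts of a gene scaled to a common library size with the TMM factors of edgeR, and therefore as shares of the RNA sequenced. In whole retina, fewer cones and less cone RNA per cell cannot be told apart. A gene is said to have passed when its adjusted p-value in edgeR's quasi-likelihood test, adjusted over all genes tested in that experiment by the Benjamini-Hochberg method, was under 0.05. Only such genes are said to have risen or fallen, and ± values are SD over the libraries of a group. Shares of all genes that passed were counted with the quasi-likelihood test on all libraries of a comparison. They were not counted for other tests or for fits without a library.

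Opn1mw encodes the M opsin of the middle wavelengths (NCBIM37, X:71372803-71396099, plus strand) and Opn1sw the S opsin of short wavelengths and ultraviolet light (6:29326671-29338468, minus strand). Arr3 encodes cone arrestin (X:97800836-97813832, plus strand). Cone transducin consists of the alpha subunit Gnat2 (3:107895707-107904350, plus), the beta subunit Gnb3 (6:124784258-124790293, minus) and the gamma subunit Gngt2 (11:95698530-95707048, plus). Gnb3 is also a transducin beta subunit of ON bipolar cells, so its level in whole retina is not that of cones alone. The catalytic subunit of cone phosphodiesterase is Pde6c (19:38207271-38258437, plus) and its inhibitory subunit Pde6h (6:136903044-136917386, plus). Cnga3 (1:37275181-37320229, plus) and Cngb3 (4:19207997-19437770, plus) form the cone channel. Exons of Opn1sw overlap those of Calu on the other strand and exons of Gngt2 those of Abi3, and whether counting used the strand is not given in the sources used here, so the counts of these members may hold reads of a neighbour.

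Promoter sequences were available from RefSeq for 6 of the 10 members, Cnga3 with 2 starts. Those of both opsins, Arr3 and Gnat2 are shown, genes that varied together across the retinas. Pde6h varied with them as well, and its promoter was searched but is not printed. Each run is the 250 bases before the RefSeq start, 5′ to 3′ on the strand of the gene, placed by an exact match in NCBIM37. Capitals mark the motifs searched on both strands: TAATCC or GGATTA (CRX/OTX), TGCTGA or TCAGCA (core of the NRL site) and AGGTCA or TGACCT (core of nuclear receptor sites).
Opn1mw (chrX:71372555-71372804, plus): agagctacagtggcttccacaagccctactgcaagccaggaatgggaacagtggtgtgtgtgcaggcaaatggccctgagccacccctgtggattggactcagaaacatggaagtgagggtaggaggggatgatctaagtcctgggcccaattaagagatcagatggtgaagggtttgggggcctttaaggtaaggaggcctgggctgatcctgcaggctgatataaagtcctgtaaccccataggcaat
Opn1sw (chr6:29330514-29330763, minus): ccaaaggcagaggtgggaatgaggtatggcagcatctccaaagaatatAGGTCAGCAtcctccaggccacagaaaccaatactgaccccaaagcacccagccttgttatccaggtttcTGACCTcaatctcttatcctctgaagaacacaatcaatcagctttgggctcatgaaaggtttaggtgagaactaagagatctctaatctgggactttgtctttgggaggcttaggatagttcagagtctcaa
Arr3 (chrX:97800586-97800835, plus): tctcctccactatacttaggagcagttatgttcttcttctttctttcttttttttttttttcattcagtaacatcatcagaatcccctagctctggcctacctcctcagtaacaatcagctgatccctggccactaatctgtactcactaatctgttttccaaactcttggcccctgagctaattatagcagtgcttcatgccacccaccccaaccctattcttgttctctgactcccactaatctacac
Gnat2 (chr3:107895734-107895983, plus): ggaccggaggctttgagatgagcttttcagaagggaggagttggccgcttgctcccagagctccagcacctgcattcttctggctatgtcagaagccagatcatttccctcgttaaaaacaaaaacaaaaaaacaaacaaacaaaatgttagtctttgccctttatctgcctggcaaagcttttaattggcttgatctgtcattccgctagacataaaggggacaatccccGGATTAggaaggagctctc

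The windows of Gnat2 and Opn1sw lie inside the gene spans given above, downstream of the annotated starts. Distances are counted from the RefSeq start. The Gnat2 promoter held a CRX/OTX match that began 19 bases before the start, a motif present in 6.25% of 32851 promoters of the same length. The Opn1sw promoter held nuclear receptor matches 202 and 132 bases before the start (14.0% of all promoters hold 1 or more) and an NRL match at 199 bases (16.1%) that overlaps the first of them. Of the 7 member promoters, 1 held each motif. None of the motifs was found in the windows of Opn1mw, Arr3, Pde6h or Cnga3, which says nothing of sites elsewhere.

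Per kilobase of annotated exon, Gnb3 or Opn1sw was the most abundant member and Cnga3 and Cngb3 the least abundant in all 10 groups. In the controls of DZNep, Opn1sw stood at 294 ± 31.2 CPM per kb and Gnb3 at 290.0 ± 9.65 (n = 4), a pair that did not differ beyond its spread. Opn1mw (143 ± 10.4) followed, then Arr3 (110.4 ± 14.1). Gnat2 (68.5 ± 4.21) and Pde6c (64.7 ± 9.07) overlapped in spread. Gngt2 stood at 48.4 ± 4.6, Pde6h at 27.0 ± 1.2, and the channel subunits Cnga3 at 8.43 ± 0.435 and Cngb3 at 7.82 ± 0.155. The place of Pde6h depends on its 7710 bases of annotated exon, the longest of the set. In CPM it stood at 208 ± 9.2 in these controls, beside Gnat2 at 205 ± 12.6.

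The control retinas of the 4 experiments differed widely in the opsins and Arr3. Opn1sw ranged from 689.9 to 859.6 CPM in the controls of DZNep, from 141 to 591 in those of UNC1999, from 149 to 528 in those of Romidepsin and stood at 142 and 155 in those of UNC0642. Opn1mw was also lowest in the controls of UNC0642 (88.0 and 84.6 CPM) and reached 240.2 in those of DZNep and 242 in those of Romidepsin. Arr3 ranged from 69.3 to 307 CPM over the control retinas. Gnb3 went the other way, with 742 to 800.2 CPM in the controls of DZNep and 1172 and 991 in those of UNC0642. Pde6c (133 to 225 CPM) and Cnga3 (22.3 to 32.8 CPM) spanned a narrower range over all 12 control retinas.

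**Figure D1:**
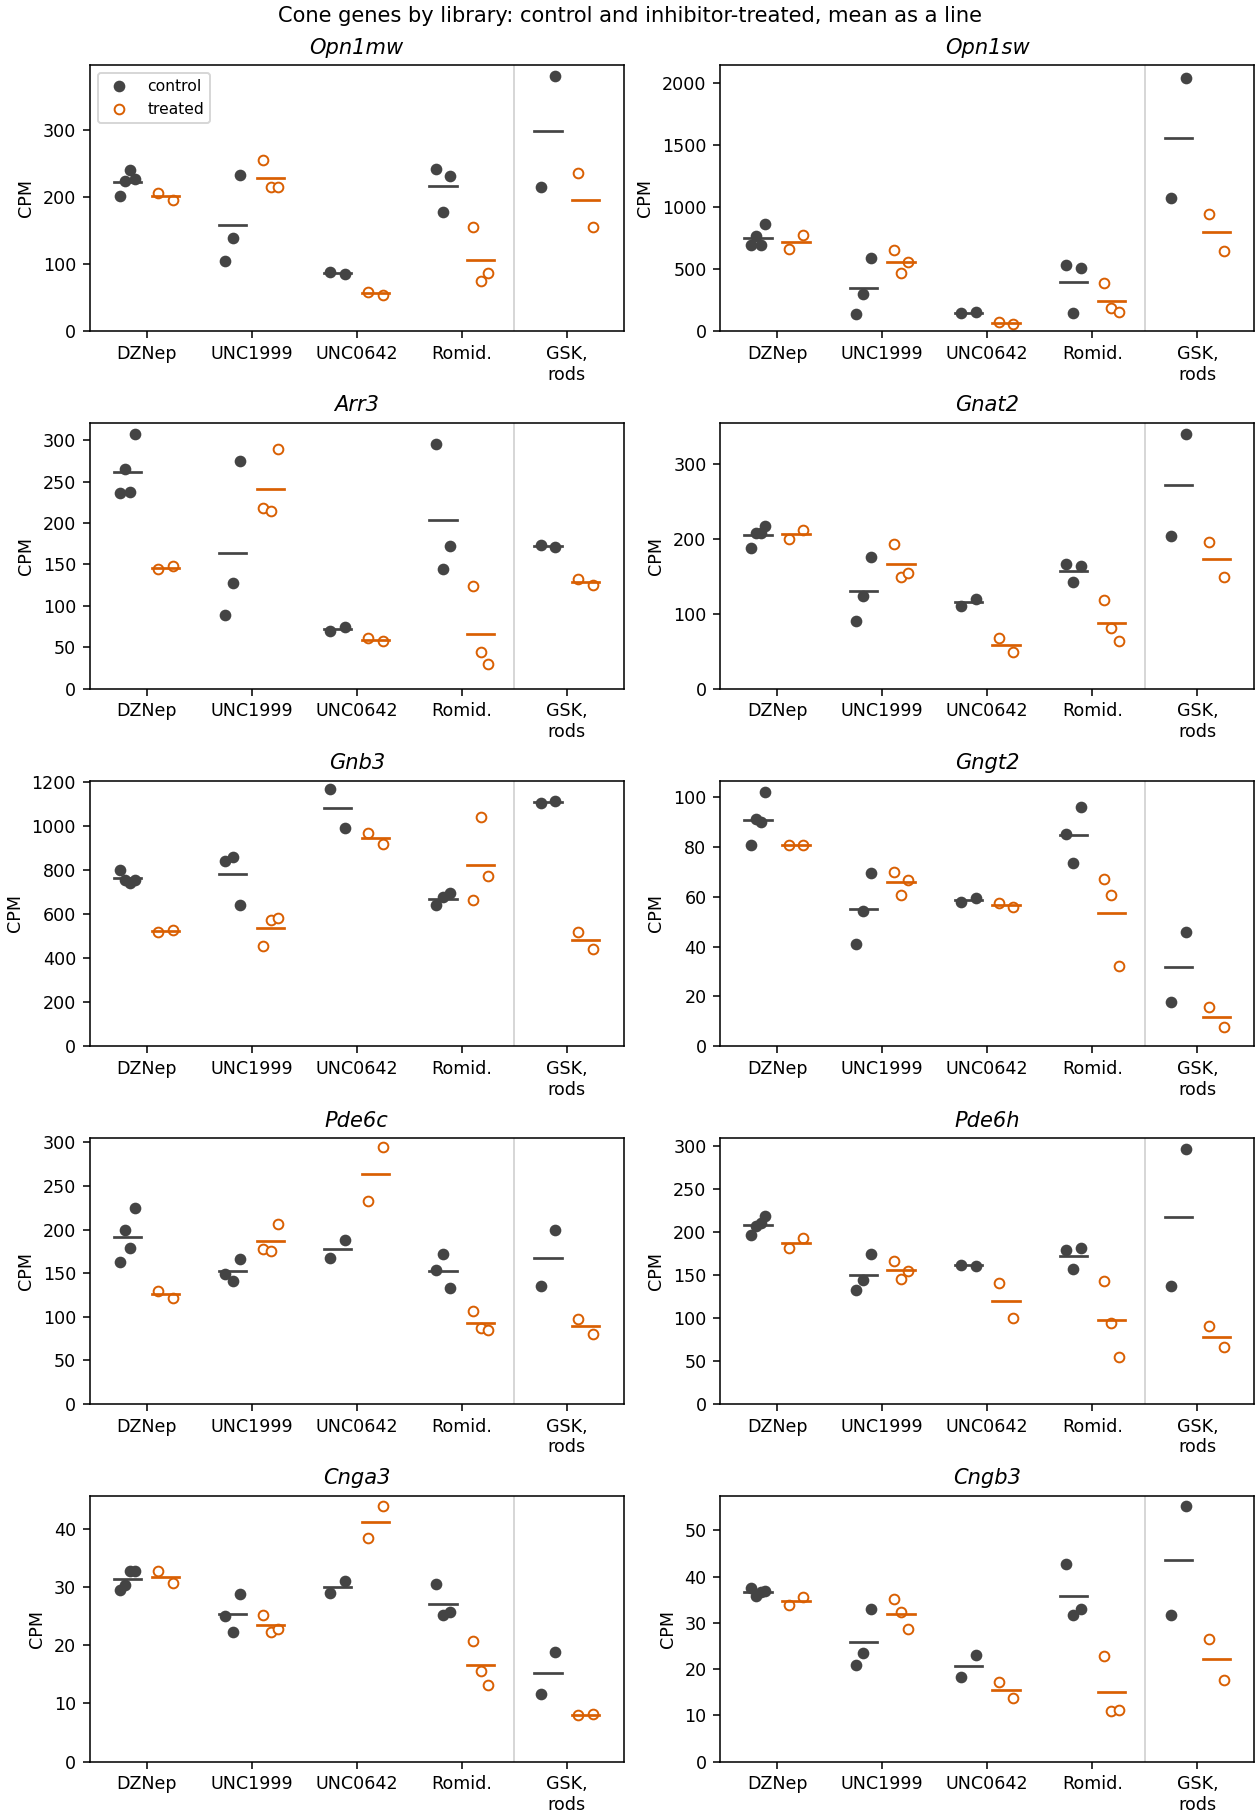
Each panel plots 1 cone gene in CPM (linear axis from 0) for every library of the 5 experiments, controls as filled and treated libraries as open circles, with the group mean as a line. After DZNep 6 genes lie below all controls, beside 21.5% of all genes tested, and of the 6 Arr3, Gnb3 and Pde6c passed. After Romidepsin 8 genes do, beside 12.5% of all genes tested, and none passed. The third UNC1999 control lies apart from the other 2 in the opsins and Arr3.

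After DZNep, Arr3, Gnb3 and Pde6c fell while their rod counterparts rose. The opsins, Gnat2, Gngt2, Pde6h and the channel subunits did not pass. Of the 10 members 3 passed, all lower, beside 9.72% of the 16477 genes tested that passed lower and 12.9% that passed higher. None passed with an absolute log2 fold change above 1, the threshold of the study, which 0.686% of the genes met in the lower and 1.02% in the higher direction.

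Arr3 was at 236, 266, 237 and 307 CPM in the 4 controls and at 145 and 148 CPM in the 2 DZNep retinas. All treated values lay below all controls, at 55.9% of the control level (log2 fold change -0.84, SE 0.10, adjusted p = 0.00129).
Gnb3 was at 800.2, 755, 742 and 756 CPM in the controls and 521 and 530.1 CPM after DZNep. The groups did not overlap, and Gnb3 fell by 0.54 on the log2 scale (SE 0.06, adjusted p = 0.000751).
Pde6c was at 163, 199.9, 178.5 and 225 CPM in the controls and 130.0 and 121 CPM after DZNep. It fell by 0.61 (SE 0.11, adjusted p = 0.00695), and both treated retinas were below the lowest control.

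Opn1sw was at 693, 765, 689.9 and 859.6 CPM in the controls and 663 and 772 CPM after DZNep, and the groups overlapped (log2 fold change -0.07, SE 0.10, adjusted p = 0.659). Opn1mw was at 201, 224, 240.2 and 227 CPM in the controls and 207 and 196 CPM after DZNep, which also overlapped (-0.15, SE 0.07, adjusted p = 0.159). Gnat2, the subunit that carries the signal from opsin to phosphodiesterase, differed by 0.01 (SE 0.06, adjusted p = 0.964). Cnga3 differed by 0.02 (SE 0.07) and Cngb3 by -0.09 (SE 0.05). Pde6h (-0.15, adjusted p = 0.0772) and Gngt2 (-0.17, adjusted p = 0.156) stood lower in both treated retinas than in any control without passing. In all, 6 of the 10 members did not overlap and were lower, beside 21.5% of all genes tested (24.4% in the higher direction).

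The 10 rod counterparts all rose after DZNep, with a median log2 fold change of 1.06. The median of the 10 cone genes was -0.15 and that of all genes tested -0.00057. Set side by side, Gnat1 rose by 1.08 where Gnat2 stood at 0.01, Cnga1 by 1.24 where Cnga3 stood at 0.02, and the rod arrestin Sag by 0.45 where Arr3 fell by 0.84. All 14 genes of the light response that rods and cones share rose, with a median of 0.88. The smallest p-values were those of Guca1a (0.94), Pdc (1.5) and Guca1b (1.5), which encode activators of guanylate cyclase and phosducin. Of 10 other cone genes 4 rose and 1 fell. Among them the transcription factors Rorb and Crx, which rods also use, rose by 0.48 and 0.89, and the cone exchanger Slc24a2 fell by 0.27.

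Other cell types moved in the same comparison. All 8 rod markers passed higher, and their summed level went from 15650 to 26400 CPM in the controls to 48380 to 49580 CPM after DZNep. Müller glia markers passed lower in 5 of 5 (7366 to 7679 against 4983 to 5605 CPM) and bipolar markers in 7 of 8 (2132 to 2365 against 1831 to 1916 CPM). Horizontal cell markers passed lower in 2 of 3 (124 to 136 against 102 to 109 CPM), amacrine markers in 2 of 3 (1000 to 1171 against 939.6 to 949 CPM) and ganglion cell markers in 1 of 5 (1224 to 1612 against 1207 to 1253 CPM). RPE markers passed higher in 3 of 5 (45.5 to 133 against 174 to 206 CPM), and of the microglia markers none passed (139 to 281 against 117 to 127 CPM). The 6 cone markers outside the set summed to 382 to 411 CPM in the controls and 395 to 403 CPM after DZNep, with Thrb passing higher. Lens markers summed to 69.3 CPM in the second DZNep retina and to 1.47 CPM or less in the other 5 libraries. The part of these shifts in the values of the cone genes was not tested. Without control replicate 1, Opn1mw, Gngt2 and Pde6h passed as well (6 members in all, lower), and the share of all genes in that fit was not counted. Without either treated retina, Arr3 and Gnb3 passed and Pde6c did not.

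After UNC1999, no member passed. Pde6c stood higher and Gnb3 lower in all 3 treated retinas than in all 3 controls, and the opsins, Arr3 and Gnat2 overlapped, with the third control among the treated values. Among the 15775 genes tested, 0.501% passed higher and 0.101% lower. At an unadjusted p under 0.05 the members counted 2, Gnb3 and Pde6c, beside 23.6% of all genes. The likelihood ratio test passed 1 and DESeq2 2, with no share of all genes counted for these tests.

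Gnb3 was at 844, 860.2 and 645 CPM in the controls and 456, 573 and 585 CPM after UNC1999. The groups did not overlap (log2 fold change -0.54, SE 0.14, adjusted p = 0.0765), as was the case in the lower direction for 13.6% of all genes. Pde6c was at 149, 141 and 167 CPM in the controls and 177, 175 and 207 CPM after UNC1999 (0.29, SE 0.09, adjusted p = 0.107). It was the only member without overlap in the higher direction, beside 13.9% of all genes.

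Opn1sw was at 141, 301 and 591 CPM in the controls and 655.5, 465 and 553 CPM after UNC1999 (log2 fold change 0.69, SE 0.43, adjusted p = 0.370). Opn1mw was at 105, 139 and 233 CPM in the controls and 256, 215.0 and 215 CPM after UNC1999 (0.52, SE 0.26, adjusted p = 0.263). Arr3 was at 88.6, 128 and 274.5 CPM in the controls and 218, 215 and 289.8 CPM after UNC1999 (0.56, SE 0.37, adjusted p = 0.398). In each of the 3 genes the first control was the lowest and the third control lay among the treated values. Gnat2 (0.35), Cngb3 (0.31) and Gngt2 (0.26) showed the same order of controls, and Pde6h (0.05) and Cnga3 (-0.12) stayed within the spread.

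Without the third control, 8 members passed: Opn1mw, Opn1sw, Arr3, Gnat2, Gngt2, Pde6c and Cngb3 higher and Gnb3 lower. The share of all genes that passed without this control was not counted. The log2 fold change of Opn1sw was then 1.33 and that of Arr3 1.16. The third control also had the highest rod level of its group: the rod counterparts summed to 21910, 18730 and 35420 CPM in the controls and 48380 to 65610 CPM after UNC1999, and 0 of the 10 passed with it (9 at an unadjusted p under 0.05, 9 not overlapping) and all 10 without it. Their median was 0.98, against 0.30 for the cone genes and -0.0020 for all genes.
Of the shared light-response genes, Abca4, which clears retinoid from disc membranes, was the 1 of 14 that passed (1.01). Microglia markers summed to 145 to 232 CPM in the controls and 87.6 to 113 CPM after UNC1999, and RPE markers to 88.5 to 107 against 295 to 357 CPM, with 4 of 5 passing higher. Bipolar markers summed to 1715 to 1812 CPM in the controls and 1517 to 1669 CPM after UNC1999. The 6 cone markers outside the set summed to 248.5 to 370.5 and 339.4 to 398.3 CPM, which overlapped, and none passed. The bearing of these shifts on the cone genes was not tested.

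After UNC0642, 8 members stood lower and 2 higher than in the controls without any overlap, with the largest distance in the S opsin. No gene of the 16321 tested passed, members included. Beside that count, 8 members had an unadjusted p under 0.05, against 14.7% of all genes. The likelihood ratio test and DESeq2 each passed 4 members: Opn1mw, Opn1sw and Gnat2 lower and Pde6c higher. How many of all genes these tests passed was not counted. Absence of overlap is frequent with 2 libraries a group, at 25.2% of all genes in the lower and 26.9% in the higher direction.

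Opn1sw was at 142 and 155 CPM in the controls and 76.4 and 53.3 CPM after UNC0642, 43.8% of the control level (log2 fold change -1.19, SE 0.16, adjusted p = 0.224). Gnat2 was at 111 and 120.1 CPM in the controls and 67.5 and 48.5 CPM after UNC0642 (-0.99, SE 0.15, adjusted p = 0.299). Opn1mw was at 88.0 and 84.6 CPM in the controls and 58.8 and 54.4 CPM after UNC0642 (-0.61, SE 0.08, adjusted p = 0.224). In all 3 genes the second treated retina was the lowest library.
Pde6c and Cnga3, the catalytic subunit and the principal channel subunit, stood in the other direction. Pde6c was at 167 and 188 CPM in the controls and 232 and 294 CPM after UNC0642 (0.56, SE 0.12). Cnga3 was at 28.9 and 31.0 CPM in the controls and 38.4 and 43.8 CPM after UNC0642 (0.46, SE 0.10), each with an adjusted p = 0.299. Both genes were highest in the second treated retina, in which the opsins were lowest.
Pde6h (-0.42), Cngb3 (-0.42), Arr3 (-0.27), Gnb3 (-0.19) and Gngt2 (-0.05) made up the rest. Without control replicate 1, Opn1sw and Gnat2 passed lower.

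The median of the cone genes was -0.34 after UNC0642, that of the rod counterparts 0.24 and that of all genes -0.0014. In this experiment the rod counterparts summed to 8597 to 8858 CPM in the controls and 8956 to 13450 CPM after UNC0642, the lowest rod level of any control retinas. Müller glia markers summed to 4520 to 5272 CPM in the controls and 3154 to 3340 CPM after UNC0642, microglia markers to 399.7 to 521 against 242 to 352 CPM, and horizontal cell markers to 104 to 117 against 97.1 to 97.7 CPM. Bipolar markers (2092 to 2109 against 1712 to 2015 CPM) were also lower, and RPE (51.9 to 106 against 130 to 151 CPM), amacrine (890.1 to 899 against 929.7 to 937 CPM) and ganglion cell markers (1321 to 1449 against 1456 to 1666 CPM) higher, each sum without overlap. The 6 cone markers outside the set summed to 261.2 to 290.1 CPM in the controls and 252.3 to 252.8 CPM after UNC0642. That sum was also lower without overlap, with 4 of the 6 fold changes negative (median -0.20) and none passing. The part of these shifts in the values of the cone genes was not tested.

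After Romidepsin, 8 of the 10 members were lower in every treated retina than in any control, and Arr3, Cngb3 and Opn1mw stood at 32.5%, 41.9% and 48.8% of the control level. None passed, although 8 had an unadjusted p under 0.05 (19.4% of the 16049 genes tested), and 0.573% of all genes passed higher and 0.174% lower. The likelihood ratio test passed 6 members and DESeq2 5, all lower, with no share of all genes counted for these tests. Absence of overlap in the lower direction was found for 12.5% of all genes (13.5% in the higher direction).

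Arr3 was at 296, 144 and 172 CPM in the controls and 124, 45.0 and 29.5 CPM after Romidepsin (log2 fold change -1.62, SE 0.50, adjusted p = 0.125). Opn1mw was at 242, 177 and 231 CPM in the controls and 155.5, 74.7 and 87.1 CPM after Romidepsin (-1.03, SE 0.26, adjusted p = 0.0873). Opn1sw was at 528, 149 and 509 CPM in the controls and 387, 187 and 155 CPM after Romidepsin (-0.70, SE 0.48, adjusted p = 0.460). The second control was low in S opsin, so that Opn1sw was the only opsin that overlapped. The first treated retina was the highest of its group in 9 of the 10 members and the lowest in Gnb3.

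Among the transducin subunits, Gnat2 was at 166.5, 142 and 163 CPM in the controls and 119, 81.3 and 64.1 CPM after Romidepsin (log2 fold change -0.84, SE 0.21, adjusted p = 0.0844). Gngt2 was also lower in every treated retina than in any control (-0.67, SE 0.25, adjusted p = 0.188). Gnb3 was at 641, 678 and 695 CPM in the controls and 664, 1043 and 773 CPM after Romidepsin (0.30, SE 0.17, adjusted p = 0.360), the only member with a positive fold change. Its groups overlapped.

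The phosphodiesterase and channel subunits were all lower. Pde6c was at 153.5, 172 and 133 CPM in the controls and 107, 87.0 and 84.9 CPM after Romidepsin (-0.72, SE 0.14, adjusted p = 0.0577), the smallest adjusted p of the members. Cngb3 was at 42.9, 31.7 and 33.0 CPM in the controls and 22.8, 11 and 11.3 CPM after Romidepsin (-1.26, SE 0.28, adjusted p = 0.0710), and Cnga3 stood at -0.72 (SE 0.18, adjusted p = 0.0894). Pde6h, the inhibitory subunit, stood at -0.82 (SE 0.29, adjusted p = 0.170).
Without the first treated retina, 7 members passed, all lower: Opn1mw, Arr3, Gnat2, Pde6c, Pde6h, Cnga3 and Cngb3. In a fit of all 22 retinas with 1 common estimate of the spread, these and Gngt2 passed (8 members). For neither fit was a share of all genes counted.

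The median of the cone genes was -0.77 after Romidepsin and that of the 10 rod counterparts 0.31, against -0.01 for all genes. No rod counterpart passed, 5 had an unadjusted p under 0.05, and 3 did not overlap. The 6 cone markers outside the set all had negative fold changes, with a median of -0.47. Their summed level was 311 to 384 CPM in the controls and 271 to 324 CPM after Romidepsin. Bipolar markers summed to 2238 to 2390 CPM in the controls and 1490 to 1754 CPM after Romidepsin, with 1 of 8 passing lower, and Müller glia markers to 6399 to 8407 against 3975 to 5035 CPM. The sums of horizontal cell (121 to 148 against 92.4 to 105 CPM), amacrine (983.5 to 1203 against 841 to 929 CPM), ganglion cell (1350 to 1644 against 1141 to 1311 CPM) and RPE markers (66.1 to 76.9 against 40.5 to 52.9 CPM) were also lower without overlap, with no marker of these types passing. Their part in the values of the cone genes was not tested.

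**Figure D2:**
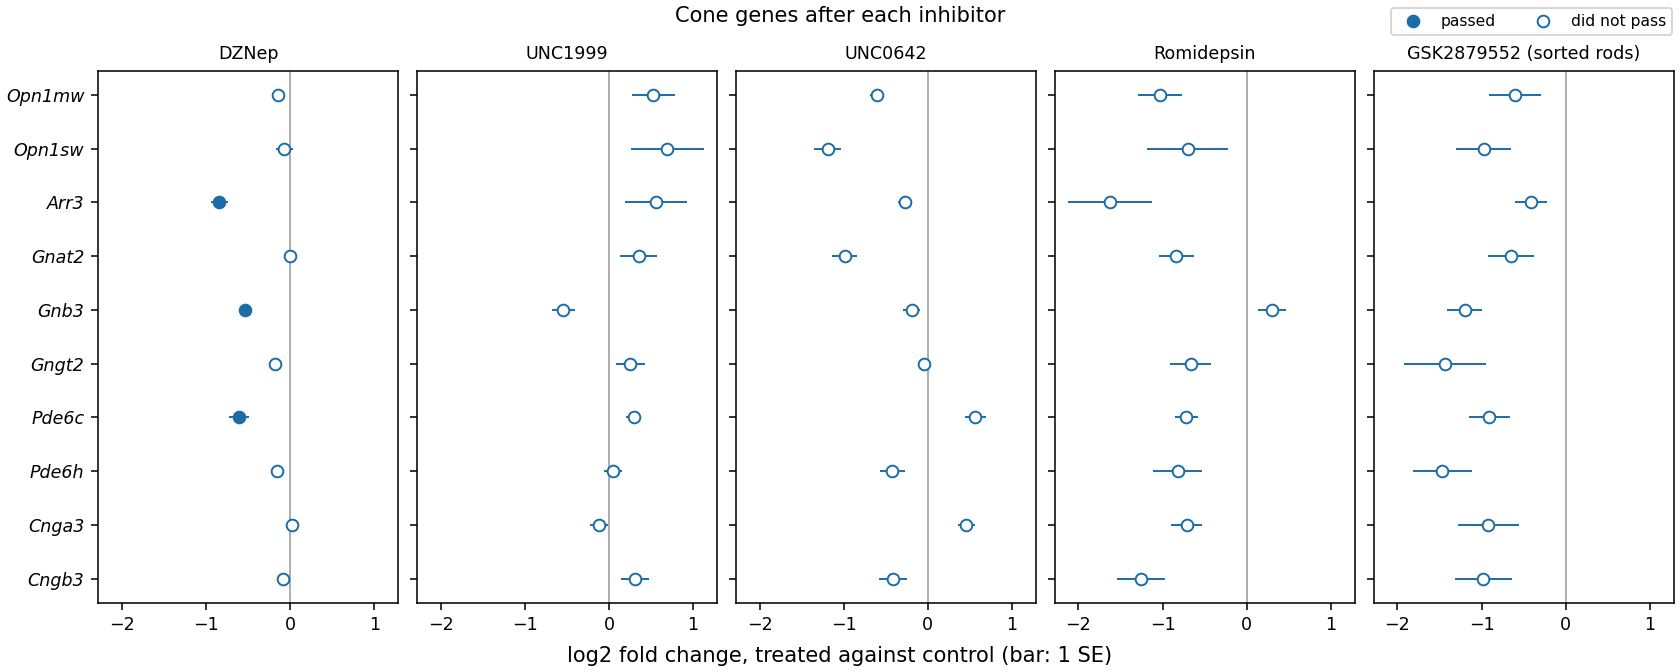
The log2 fold change of each cone gene (horizontal axis, treated against control, bar 1 SE) is shown for each inhibitor, filled where the gene passed. Arr3, Gnb3 and Pde6c after DZNep are the filled points, and Gnb3 lies opposite to most other members after UNC1999 and Romidepsin.

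**Figure D3:**
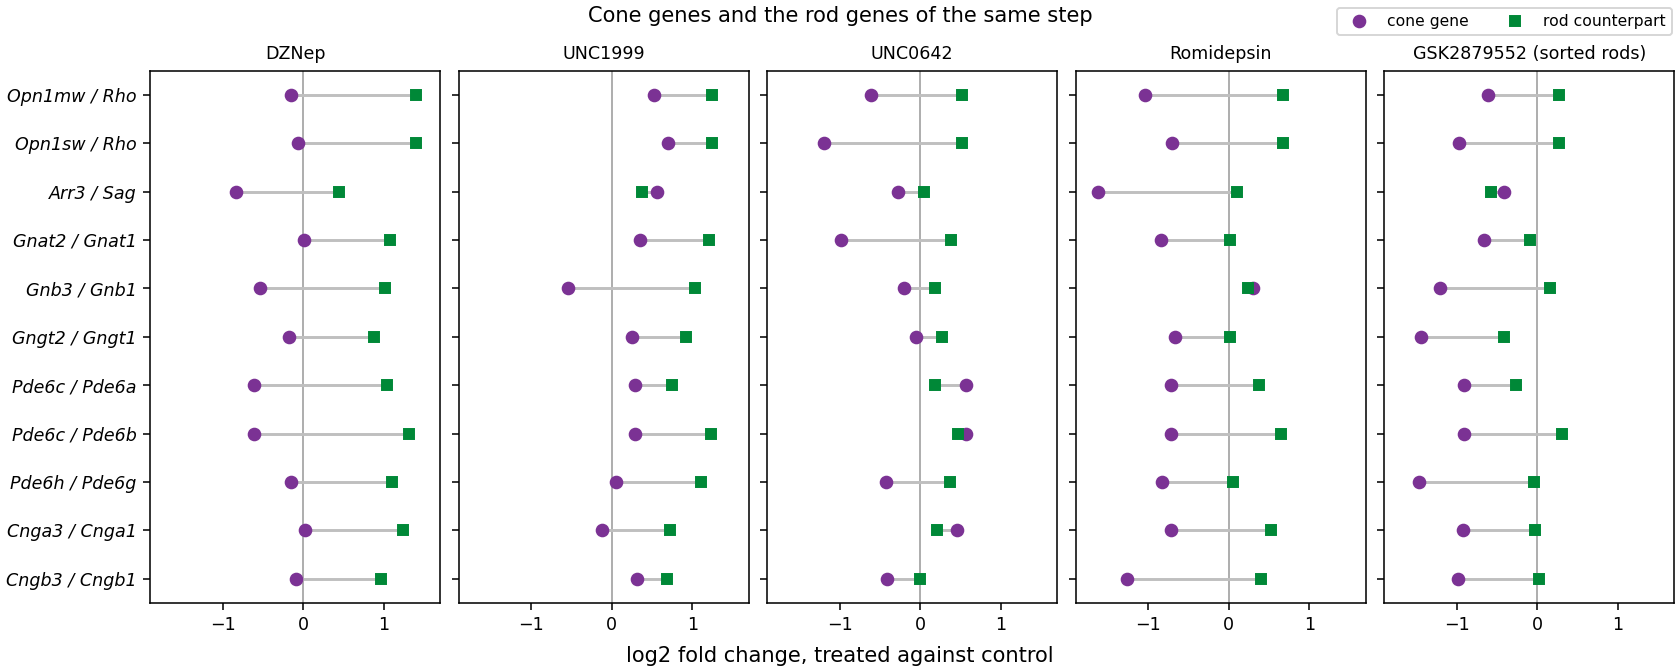
Each line joins the log2 fold change of a cone gene (circle) to that of the rod gene of the same step (square). After DZNep, UNC1999 and Romidepsin the rod medians stood at 1.06, 0.98 and 0.31 and the cone medians at -0.15, 0.30 and -0.77.

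In the sorted rods, transcripts of all 10 cone genes were counted, and all 10 had lower fold changes after GSK2879552. Opn1sw was at 1074 and 2042 CPM in the 2 control samples, against 141 to 859.6 CPM in the 12 control retinas. The 10 members summed to 3104 and 4664 CPM, against 1637 to 2982 CPM in the control retinas. Only Opn1sw stood above all control retinas in both sorted controls. Opn1mw, Gnat2, Pde6h and Cngb3 did so in the second alone, and Arr3, Gnb3 and Pde6c lay within the range of the control retinas in both. The 6 cone markers outside the set summed to 393 to 497 CPM in the sorted controls and 248.5 to 411 CPM in the control retinas. That sum rested on Thrb, a thyroid hormone receptor of cones, at 254 ± 19.0 CPM in the sorted controls (n = 2) beside group means of 52.4 to 76.1 CPM in the control retinas. Kcne2 and Otop3 also stood higher than in each of the control groups, while Ccdc136 (63.7 against 142 to 194 CPM), Sall3 (5.43 against 13.9 to 16.1 CPM) and Rxrg (6.31 against 9.17 to 13.3 CPM) stood lower. In the same sorted controls, horizontal cell markers summed to 3.63 to 5.75 CPM (103 to 148 in the control retinas), Müller glia markers to 187 to 285 CPM (2971 to 8407) and rod markers to 39560 to 64630 CPM (7369 to 31820). Single members also stood lower in the sorted samples: Cnga3 (11.6 and 18.9 CPM) lay below all 12 control retinas in both sorted controls, and Gngt2 in the first of them (17.8 CPM). The methods describe another library kit for the sorted rods than for the retinas, and these levels are set side by side without a test.

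None of the 14478 genes tested passed in the sorted rods, members included. At an unadjusted p under 0.05 there were 8 members, beside 4.91% of all genes. The likelihood ratio test and DESeq2 each passed Gnb3 and Pde6h, both lower, with no share of all genes counted for these tests. In 9 members the treated samples lay below both controls, as in 17.3% of all genes, with 15.9% in the higher direction.

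Gnb3 was at 1104 and 1115 CPM in the controls and 520.2 and 445 CPM after GSK2879552 (log2 fold change -1.20, SE 0.21, unadjusted p = 0.000281, adjusted p = 0.361). The 2 controls were close together, and the treated samples stood at 43.5% of their level. Pde6h was at 137 and 297 CPM in the controls and 90.8 and 66.2 CPM after GSK2879552 (-1.47, SE 0.35, adjusted p = 0.663). Gngt2 was at 17.8 and 45.7 CPM in the controls and 15.6 and 7.77 CPM after GSK2879552 (-1.44, SE 0.49).
Opn1sw was at 942 and 646 CPM after GSK2879552 (-0.97, SE 0.33, adjusted p = 0.975). Opn1mw was at 216 and 381 CPM in the controls and 236 and 156 CPM after GSK2879552 (-0.60, SE 0.31), the only member whose groups overlapped. Arr3 was at 173 and 171 CPM in the controls and 132 and 125.5 CPM after GSK2879552 (-0.42, SE 0.19).
In all members other than Arr3 and Gnb3 the controls were far apart and the second was the higher. Gnat2 (-0.66), Pde6c (-0.91), Cnga3 (-0.92) and Cngb3 (-0.98) followed that pattern. Without the second control the fold change of Opn1sw was -0.44 and that of Opn1mw -0.14. Without the first treated sample, Gngt2 and Pde6h passed lower, and without the second, Pde6h.

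The rod counterparts in the same samples had a median log2 fold change of -0.04 (none passed, 0 at an unadjusted p under 0.05), the cone genes -0.95, and all genes -0.01. Gnb1 stood at 0.16 beside Gnb3 at -1.20, and Pde6g at -0.04 beside Pde6h at -1.47. Of the 10 other cone genes, 7 had negative fold changes and none passed, with a median of -0.52. The 6 cone markers outside the set summed to 333 to 413 CPM after GSK2879552, which overlapped the controls, and Thrb was at 258 CPM. Of these 6 markers 5 had negative fold changes (median -0.64), 3 did not overlap and none passed, with Kcne2 at an unadjusted p under 0.05. Bipolar markers summed to 544 to 832 CPM in the controls and 548 to 586 CPM after GSK2879552, which overlapped. All 8 had negative fold changes (median -0.34) and none passed. Of them 3 stood lower without overlap, beside 17.3% of all genes. The part of bipolar cells in the result was not tested.

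To ask whether cone genes answered the inhibitors differently, the effect of each inhibitor over its own controls was compared between inhibitors in 1 fit of the 22 retinas, for 6 pairs and 17274 genes. Romidepsin and UNC1999 differed in 6 members, beside 5.11% of all genes. The effect of UNC1999 less that of Romidepsin was positive for Opn1mw (1.56, SE 0.34, adjusted p = 0.0137), Arr3 (2.18, SE 0.58, adjusted p = 0.0367) and Gnat2 (1.19, SE 0.29, adjusted p = 0.0255). It was also positive for Pde6c (1.01, SE 0.18, adjusted p = 0.00582) and Cngb3 (1.57, SE 0.30, adjusted p = 0.00781). For Gnb3 it was negative (-0.85, SE 0.20, adjusted p = 0.0200). UNC0642 and Romidepsin differed in Pde6c (1.28, SE 0.20, adjusted p = 0.0383), beside 0.0174% of all genes.

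In the other 4 pairs 0 members passed, beside 0.00579% of all genes for DZNep against UNC1999, 0.0232% for DZNep against UNC0642, 0.289% for DZNep against Romidepsin and 0.0116% for UNC1999 against UNC0642. Over these 4 pairs 15 of the differences had an unadjusted p under 0.05, and the likelihood ratio test passed 6. The share of all genes was counted for neither rule, so these numbers do not set the members apart from other genes. DZNep less UNC1999, the inhibitors that share a named target, gave -0.89 for Pde6c (SE 0.19, unadjusted p = 0.000128, adjusted p = 0.201) and 0.01 for Gnb3 (SE 0.20), which was at -0.54 after each. DZNep less Romidepsin gave -0.84 for Gnb3 (SE 0.21, adjusted p = 0.0794). The number of members with a difference, summed over the pairs, was 7. It went to 19 without the first Romidepsin retina and 15 without the third UNC1999 control. It fell to 3 without the first Romidepsin control or the second UNC1999 control and to 4 without the first UNC1999 control. Of the 22 fits made without 1 library, Opn1mw, Pde6c and Cngb3 passed between UNC1999 and Romidepsin in all 22, Gnb3 in 18, Gnat2 in 16 and Arr3 in 14. Gnb3, Gnat2 and Arr3 all lost the call without the first Romidepsin control or without the first or second control or the first treated retina of UNC1999. Gnat2 and Arr3 also lost it without the second or the third Romidepsin retina, and Arr3 without the second or the third UNC1999 retina. Pde6c passed between UNC0642 and Romidepsin in 10 of the 22, and its call was lost also without single retinas of the DZNep and UNC1999 experiments.

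The balance of the opsins was read in each library as the ratio of Opn1sw to Opn1mw, which no scaling of libraries changes. The ratio of CPM was 3.44, 3.42, 2.87 and 3.79 in the controls of DZNep and 3.20 and 3.94 after it. It was 1.35, 2.16 and 2.54 in the controls of UNC1999 and 2.56, 2.16 and 2.57 after it. Both groups overlapped with their controls, with mean differences of 0.08 and 0.31 on the log2 scale.
After UNC0642 the ratio was 1.30 and 0.98, below the 1.62 and 1.83 of its controls (difference -0.61). After Romidepsin it was 2.49, 2.50 and 1.78, and in its controls 2.19, 0.84 and 2.2, the second control being the only one with less S than M opsin RNA. In the sorted rods the ratio was 4.98 and 5.36 in the controls and 3.98 and 4.14 after GSK2879552 (difference -0.35). The exact two-sided permutation tests gave p = 0.667 for DZNep, 0.2 for UNC1999, 0.333 for UNC0642, 0.5 for Romidepsin and 0.333 for the sorted rods, and 0.5555 or more after adjustment over the 5. The smallest p that 2 against 2 libraries can give is 0.333, 3 against 3 give 0.1, and 2 against 4 give 0.0667.

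**Figure D4:**
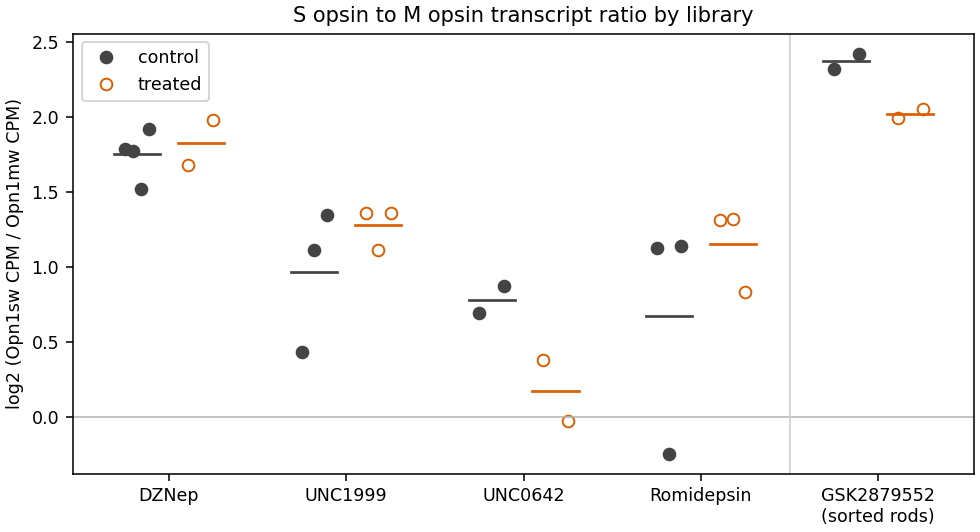
The log2 ratio of Opn1sw to Opn1mw CPM is plotted for each library, controls filled, treated open, mean as a line. The UNC0642 retinas and the rods after GSK2879552 lie below their controls, and the second Romidepsin control lies near 0 with the second UNC0642 retina.

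Across the 22 retinas, 7 of the members varied together and 3 did not follow them. Pearson's r of log2 CPM between a member and the mean of the other 9 was 0.815 to 0.953 for both opsins, Arr3, Gnat2, Gngt2, Pde6h and Cngb3, 0.392 for Cnga3, 0.278 for Pde6c and -0.589 for Gnb3. These values describe libraries that share experiments, controls and treatments, and they are given with no test. Taken as deviations from the mean of their own group, the same 7 members gave 0.819 to 0.937, Cnga3 0.773, Pde6c 0.306 and Gnb3 -0.569. The catalytic subunit Pde6c and the channel subunit Cnga3 correlated with each other at 0.774 over all retinas and 0.554 within groups. Within groups Cnga3 was closer to Opn1mw (0.701), Opn1sw (0.572), Arr3 (0.818) and Cngb3 (0.764) than to Pde6c. Pde6c stayed further from the opsins there (0.286 with Opn1mw, 0.0653 with Opn1sw) than from Cnga3.

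**Figure D5:**
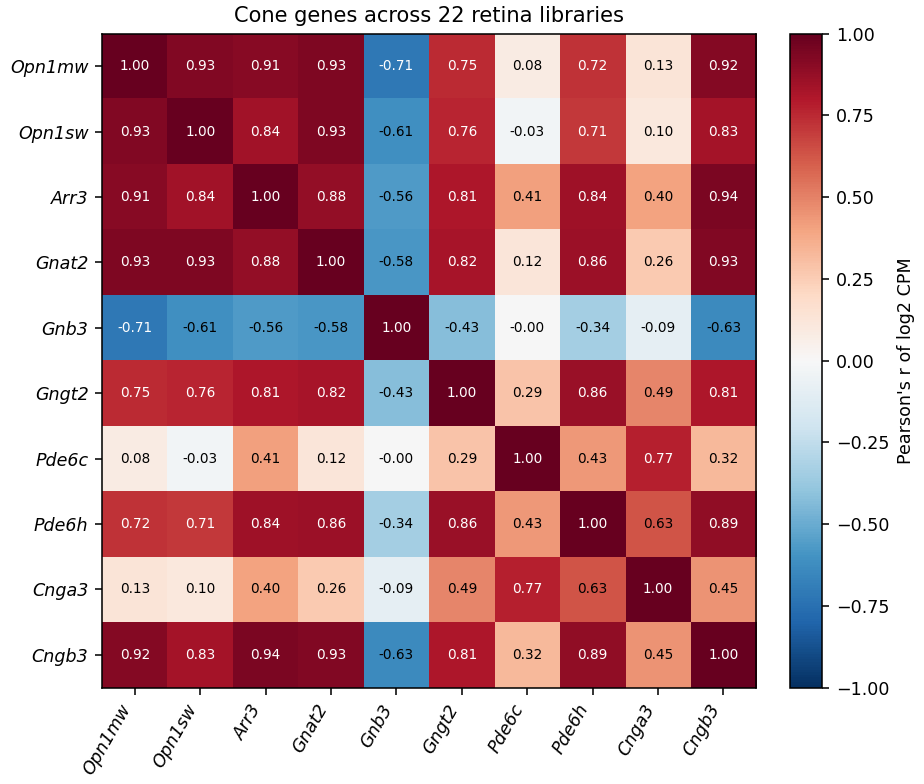
Pearson's r of log2 CPM between each pair of cone genes over 22 retina libraries, from -1 (blue) to 1 (red). Gnb3 is negative with all other members, though barely so with Pde6c (-0.00271) and Cnga3 (-0.0881). Over all retinas Pde6c and Cnga3 are closer to each other (0.774) than to the opsins, which did not hold for Cnga3 within groups.

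Among 12300 other genes with a mean of at least 5 CPM, those most like the mean of the members over the 22 retinas were Mtap4 (r = 0.966), Fam19a3 (0.953), Kcnj9 (0.951), Lrp2bp (0.949) and Fam40b (0.944). Without the 2 retinas farthest from the median of the members' mean, the third Romidepsin retina and the second UNC0642 retina, these genes gave 0.915 to 0.973. Within groups they gave 0.791 to 0.938.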

How the data were processed

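Whole retinas (22 libraries) and sorted rods (4 libraries) were grouped by the titles of the samples, and each treatment was compared with the controls of its own experiment, so no library was shared between comparisons. Trimming by the authors used BBDuk, alignment to NCBIM37 used HISAT2 2.2.1, and HTSeq 0.11.2 gave the deposited raw counts of 37991 genes, with no row that is not a gene identifier.

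Symbols came from GENCODE M1 on the same build (37205 identifiers). Genes were filtered with filterByExpr, normalized with TMM and tested with the quasi-likelihood F test of edgeR 4.0.16 (R 4.3.3). The authors used the likelihood ratio test, which served here as an alternative. A gene passed at an adjusted p under 0.05. The SE is the fold change divided by the square root of F. The opsin ratio used a prior count of 0.5 and likeness a prior count of 2. The tests were tested on simulated data. A floor of 3 counts corresponds to 0.0825 to 0.412 CPM, far below every member. In 23 pairs of replicates the chi-square per gene was at least 3.89, so none was a copy. The titles call the libraries of a group biological replicates.

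All 10 members are named in each experiment. Of the shared light-response genes and the other cone genes, those among the 3 smallest p-values that passed in each direction are named, except 1 gene that is not reported here. The members, lists and tests were chosen with earlier results of these data known. Results were recomputed with that test, with DESeq2 1.42.0, with RLE factors, unfiltered, with a minimum of 10 counts per library, with replicate as a block, with all retinas in 1 fit, with the fold threshold of the authors, with prior count 2 and without each library in turn. RefSeq promoters came from a table on GRCm38.p6 and were placed in NCBIM37 by sequence. Figures were drawn with matplotlib.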

Additional observations from a re-analysis of the deposited data

How the results depend on the processing

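Of the counts of members that passed, 3 after DZNep and 0 in the other experiments, that of DZNep stayed at 2 or 3 under every alternative test and filter, and was 0 with an absolute log2 fold change above 1. Arr3 no longer passed after DZNep when all 22 retinas were fitted together. The likelihood ratio test passed 1 member after UNC1999, 4 after UNC0642, 6 after Romidepsin and 2 in sorted rods, and 16 differences between inhibitors. DESeq2 passed 2, 4, 5 and 2 in the same order, and no filter on low counts 1, 6, 5 and 5. All retinas in one fit passed 1 after UNC1999 and 8 after Romidepsin. Whether the numbers of replicates pair the libraries is not known. Correlations of same-numbered deviations ran from -0.279 to 0.230, with no experiment of 3 pairs above 0.1 throughout. So few pairs cannot decide it, and with 2 libraries in each arm both values are equal by construction (0.213 for UNC0642, -0.0788 for sorted rods). With a replicate block 6 members passed after UNC0642 and 2 after Romidepsin, 3 after DZNep and 0 elsewhere. Leaving out 1 library gave 2 to 6 members after DZNep, 0 to 8 after UNC1999, 0 to 2 after UNC0642, 0 to 7 after Romidepsin, 0 to 2 in sorted rods and 3 to 19 differences between inhibitors. Where this left 1 library in an arm, it was assumed to vary like the other arm. No share of all genes was counted under these alternative settings. Without the second treated retina the difference in opsin ratio after DZNep reversed to -0.0706 (range -0.07 to 0.23 over the libraries left out). Gnat2 after DZNep reversed to -0.00013 with at least 10 counts in every library. Leaving out 1 library also turned the sign of Gnat2 (-0.0364 to 0.0482), Cnga3 (-0.0283 to 0.0644) and Opn1sw (-0.181 to 0.0373) after DZNep and of Pde6h after UNC1999 (-0.0358 to 0.173), none of which passed. RLE factors and a minimum of 10 counts per library changed no count. The cause of these changes was not tested. Every member was at 7.77 CPM or more in each library, above the level of 3 counts.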
